A study of Mus musculus with 6 samples.

Results

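The genes examined are the alpha and beta tubulin isotypes, the building blocks of microtubules, in activated and quiescent neural stem cells. The cells came from the ventricular-subventricular zone of adult mice, the lining of the lateral ventricles where neurons are made throughout life. The list held 10 genes, 4 of alpha and 6 of beta tubulin. Their probe sets were taken by annotation, as those assigned to exactly 1 gene, and not by their values. The list of genes itself was chosen with earlier results of these data known. In all, 17 probe sets measured 8 of the 10 genes, among 18193 genes with such a probe set. Tuba1b and Tuba1c had no probe set of their own and are not analysed here as genes. Activated cells were GFAP::GFP+, CD133+, EGFR+ and CD24-, and quiescent cells were GFAP::GFP+, CD133+ and CD24-. Both sorts therefore shared the GFP reporter under the GFAP promoter, CD133 and the removal of CD24+ cells, and the labels give no EGFR status for the quiescent sort, no age beyond adult and no strain. There were 3 arrays of 1 colour in each group, called biological replicates in the labels without saying whether each came from separate animals, so p-values measure the spread between these samples. That number of arrays limits how precise any value can be.

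Alpha and beta tubulin pair into heterodimers that polymerise into microtubules, the tracks and scaffolds of the cell and the fibres of the mitotic spindle. Isotypes are closely similar proteins that differ mainly in their acidic C-terminal tails, where many modifying enzymes and microtubule-associated proteins act. In the brain, Tubb3 is best known as the neuronal isotype, Tubb4a as an isotype abundant in myelinating oligodendrocytes, Tubb5 as the widely expressed isotype of dividing progenitors, and Tubb4b as an isotype of cilia.

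Isotypes differed between activated and quiescent cells in opposite directions. Tubb5 and Tubb4b rose in activated cells, while Tuba4a, Tubb4a, Tubb2a and, on its single-gene probe set, Tubb2b fell. The Tubb2b call was lost under 8 of 19 alternative settings, among them other scalings of the arrays and leaving out any single activated array. Tuba1a and Tubb3 did not pass the test. Signals are given as log2 MAS5 values. Each difference is activated minus quiescent in log2 units, with its SE and with the Benjamini-Hochberg adjusted p of limma over the 11575 genes bright enough to be tested, and a gene was called at an adjusted p under 0.05. Of the 8 tested isotype genes 6 were called, 2 higher and 4 lower. Among all tested genes 34.9% were called, 17.3% higher and 17.6% lower. The median absolute difference was 2.19 over the 8 isotypes and 0.89 over all tested genes. The arrays of the groups did not overlap for 7 of the 8 genes, 2 higher and 5 lower, and for 50.7% of all tested genes, 25.1% higher and 25.5% lower.

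**Figure D1:**
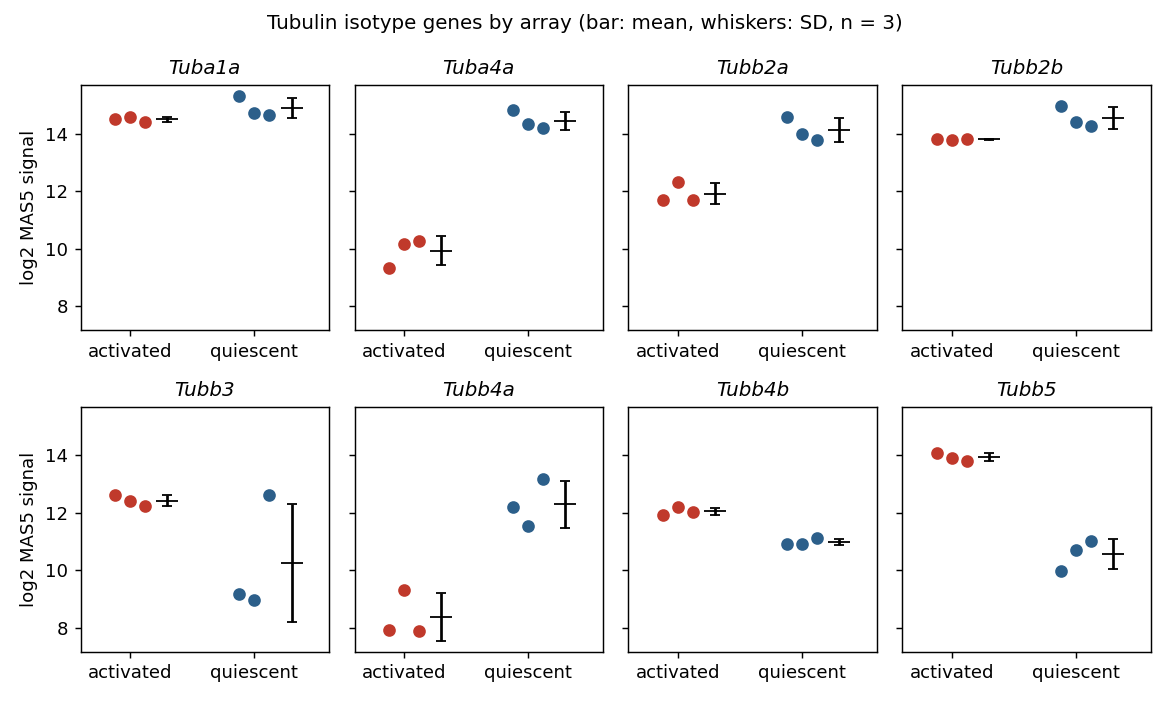
Log2 MAS5 signal (y axis) of 8 tubulin isotype genes on each activated and quiescent array, 1 point per array, with the mean and SD of 3 arrays. Tubb5 and Tubb4b lay higher on all activated arrays, Tuba4a, Tubb4a, Tubb2a and Tubb2b lower, Tuba1a lower as deposited but higher (0.25) after scaling to the hybridisation controls, and Tubb3 overlapped through quiescent array 3.

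Several array measures moved with the groups. Hybridisation controls, which are added to every array, read 13.65 to 13.73 on activated and 14.01 to 14.94 on quiescent arrays. Array background, the 95th percentile of 27 probe sets for absent bacterial transcripts, was 4.52 to 4.67 on activated and 5.45 to 6.10 on quiescent arrays. The 3′ minus 5′ difference of the Gapdh controls, a measure of RNA integrity, was 1.19 to 1.51 and 1.54 to 2.59 in the same order. Quiescent array 1 was highest in all of these. The same difference of the actin controls overlapped, at -0.11 to 0.20 on activated and -0.24 to 0.07 on quiescent arrays. Scaling to the hybridisation controls shifted the median difference of all tested genes to 0.66, against 0.01 as deposited, and median scaling shifted it to 0.57. Egfr, the gene of the receptor used in the sort, averaged 12.89 ± 0.15 on activated and 10.78 ± 0.14 on quiescent arrays (SD, n = 3), all 19 tested mitosis genes were called higher and all 15 tested astrocyte and quiescent stem cell markers were called lower in activated cells.

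Tubb5, the beta tubulin of proliferating progenitors, showed the largest rise among the isotypes. Its brighter probe set read 14.08, 13.90 and 13.80 on activated arrays 1 to 3, against 9.99, 10.70 and 11.02 on quiescent arrays 1 to 3. The activated arrays lay close together, and every quiescent array was below them by more than the spread within either group. The difference was 3.36 ± 0.29, a 10.3-fold higher signal (adjusted p = 4.999e-05). The further Tubb5 probe set read 13.33, 13.15 and 13.37 on activated arrays and 10.71, 12.35 and 10.57 on quiescent arrays. Quiescent array 2 was the highest of its group there, and the groups still did not overlap. The further probe set rose by 2.07 ± 0.42 (adjusted p = 0.00389 over 22607 probe sets). The summed linear signal of the mitosis genes was 3727, 10364 and 3713 on quiescent arrays 1 to 3, also highest on array 2. The brighter Tubb5 probe set did not follow this order, as it was highest on quiescent array 3.

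Tubb4b, a beta tubulin of cilia that is also made in many other cells, rose by 1.06 ± 0.24 (adjusted p = 0.00719), a 2.08-fold higher signal. It read 11.92, 12.19 and 12.03 on activated arrays and 10.93, 10.90 and 11.12 on quiescent arrays, with little spread in either group. This value rests on 1 of the 6 Tubb4b probe sets. Of the other 5, 4 were too dim to be tested, with means of at most 4.30 on activated and 6.09 on quiescent arrays. These dim probe sets differed by -3.47, -1.87, -1.06 and 1.08. Those at -3.47 and -1.87 were lower on all activated arrays, against the called rise. The fifth differed by -0.13 ± 0.74 (adjusted p = 0.91 over probe sets). Ependymal and ciliated cell markers moved against Tubb4b. Of 9 tested, 5 fell and 1 rose. The summed linear signal of the 23 matched markers was 3350 to 3954 on activated and 7220 to 8873 on quiescent arrays. On activated arrays its brightest gene was Dnah11, the 1 that rose (10.55 to 11.28, against 6.26 to 7.36 on quiescent arrays). On quiescent arrays it was Rarres2 (11.33 to 12.34, against 7.96 to 8.19 on activated arrays). Of the 23 markers, 4 to 11 were at background on each array. The master regulator Foxj1, too dim to be tested, read 1.70 to 5.88 on activated and 6.65 to 8.07 on quiescent arrays. Its value of 1.70, on activated array 2, was below the background of that array (4.52). The part of ciliated cells in the Tubb4b result was not tested.

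Tuba4a, the alpha tubulin whose gene does not encode the terminal tyrosine found on other alpha isotypes, had the largest difference of the family. Its brightest probe set read 9.34, 10.18 and 10.28 on activated arrays, against 14.81, 14.33 and 14.20 on quiescent arrays. All quiescent arrays were bright and within a narrow range, and no activated array came near them. It fell by 4.51 ± 0.31, a 22.8-fold lower signal (adjusted p = 3.157e-05). The size depended on the probe set. The second Tuba4a probe set fell by 1.89 ± 0.35 (adjusted p = 0.00241 over probe sets), which was no longer called once arrays were scaled to the hybridisation controls (adjusted p = 0.0878). The third read 7.81, 5.06 and 6.68 on activated and 7.09, 7.56 and 7.84 on quiescent arrays, overlapped, and differed by -0.98 ± 0.72 (adjusted p = 0.32).

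Tubb4a, a brain isotype abundant in myelinating cells, read 7.93, 9.33 and 7.89 on activated arrays and 12.21, 11.54 and 13.16 on quiescent arrays. The groups did not overlap, although both were more spread than for most isotypes. It fell by 3.92 ± 0.49, a 15.1-fold lower signal (adjusted p = 0.000258). Oligodendrocyte markers moved with it. Of 13 tested markers 12 fell and 0 rose, and the summed linear signal of the 14 matched markers was 2856, 6580 and 2552 on activated arrays 1 to 3 and 51703, 22877 and 91316 on quiescent arrays 1 to 3. Tubb4a ordered the 6 arrays exactly as this sum did, with activated array 2 highest of its group and quiescent array 3 highest of all. The myelin gene Mbp read 7.43, 10.16 and 5.38 on activated and 13.22, 11.73 and 14.17 on quiescent arrays. The part of oligodendrocyte RNA in the Tubb4a result was not tested. In sorted bulk RNA, fewer cells of a type and less RNA per cell cannot be told apart. The brightest Tuba4a probe set did not follow this order. Its highest array was quiescent array 1, and its lowest quiescent array was array 3, the one with the most oligodendrocyte signal. Both further Tuba4a probe sets were highest on quiescent array 3, at 10.70 and 7.84.

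**Figure D2:**
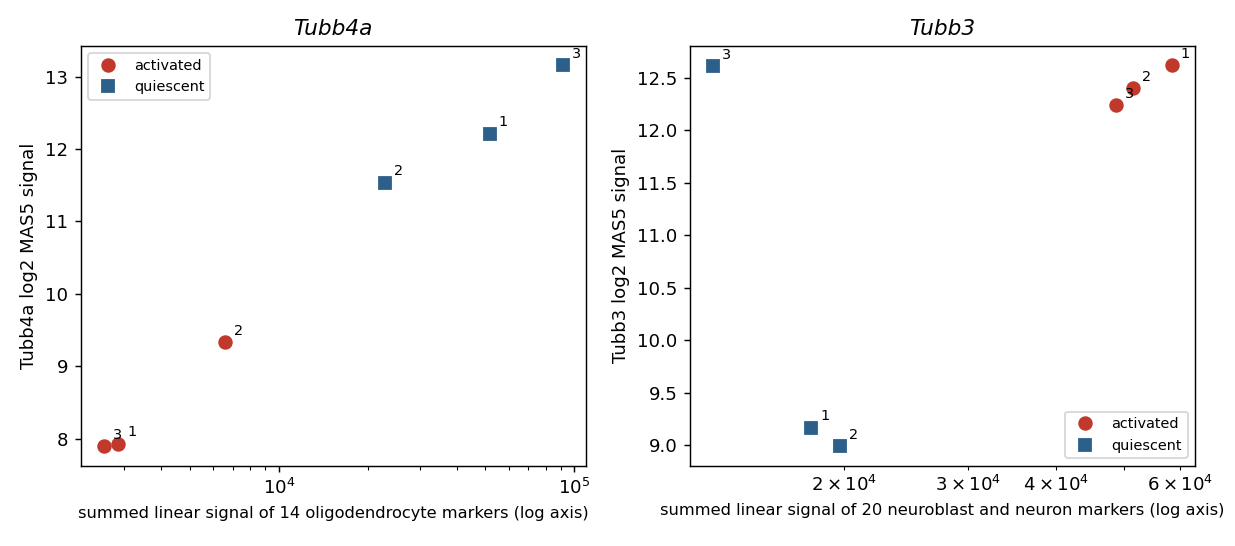
Log2 signal of Tubb4a and Tubb3 (y axes) against the summed linear signal of marker genes on the same array (x axes, log scale), with 1 numbered point per array. Tubb4a and the oligodendrocyte markers ranked the 6 arrays alike. Quiescent array 3 was high in Tubb3 and lowest in the summed signal of neuroblast and neuron markers, but not in their median.

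The closely related genes Tubb2a and Tubb2b encode the major beta tubulins of neural tissue. On their single-gene probe sets both were lower in activated cells, by different amounts. Tubb2a read 11.70, 12.32 and 11.70 on activated arrays and 14.59, 13.97 and 13.79 on quiescent arrays. It fell by 2.21 ± 0.29, a 4.62-fold lower signal (adjusted p = 0.000313), and its further probe set by 1.48 ± 0.23 (adjusted p = 0.00101 over probe sets). The brighter probe set is of a type that can match several related transcripts. The further one, which is not, gave a 2.79-fold lower signal and was not called under scaling to the hybridisation controls (adjusted p = 0.0785). Tubb2b read 13.80, 13.77 and 13.82 on activated arrays and 14.96, 14.39 and 14.26 on quiescent arrays. The activated values were almost identical, and quiescent array 1, which also had the brightest hybridisation controls, stood above the others. Tubb2b fell by 0.74 ± 0.24 (adjusted p = 0.0361). This call was lost under 8 of the 19 alternatives, among them scaling to the hybridisation controls (-0.10, adjusted p = 0.778), median scaling (-0.19, adjusted p = 0.71), and leaving out any single activated array or quiescent array 2 (adjusted p = 0.0586 to 0.128). A probe set shared by Tubb2b and Tubb2a-ps2 went the other way, with means of 12.09 on activated and 10.61 on quiescent arrays. All activated arrays were above the quiescent ones there, and its signal cannot be assigned to either gene.

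Tuba1a, the alpha tubulin of newborn neurons, read 14.50, 14.56 and 14.40 on activated arrays, against 15.30, 14.72 and 14.64 on quiescent arrays. The groups did not overlap, but the gap was small beside the spread of the quiescent arrays. The difference was -0.40 ± 0.24 (adjusted p = 0.215, 95% interval -0.93 to 0.13), and it turned to 0.25 after scaling to the hybridisation controls and 0.16 after median scaling, again without a call. The only single-gene probe set of Tuba1a is of a type that can match several related transcripts, so signal of other alpha tubulins cannot be told apart from it.

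Tubb3, the neuronal isotype, did not separate the groups. It read 12.62, 12.40 and 12.24 on activated arrays, and 9.17, 8.99 and 12.62 on quiescent arrays. Quiescent arrays 1 and 2 were far below the activated arrays, while quiescent array 3 was level with them. The difference was 2.16 ± 0.77 (adjusted p = 0.0501, 95% interval 0.46 to 3.87). Without quiescent array 3 it was 3.34 and was called (adjusted p = 3.91e-05), and 7 further alternatives also called it, such as scaling to the hybridisation controls (2.81, adjusted p = 0.0219). The summed linear signal of the 20 matched neuroblast and young neuron markers was 48637 to 58399 on activated arrays. It was 17940, 19724 and 13020 on quiescent arrays 1 to 3, lowest on array 3. On quiescent arrays this sum was led by its brightest genes, Map2 (12.78, 12.47 and 11.28) and Ncam1 (12.59, 12.86 and 11.74). The median log2 signal of the same markers was 7.25, 7.79 and 7.31 there, lowest on array 1. Of the 16 tested markers 8 rose and 0 fell in activated cells. Dcx, the microtubule-binding protein of migrating neuroblasts, read 11.31, 10.38 and 10.70 on activated arrays and 7.06, 8.86 and 7.16 on quiescent arrays. Cd24a, whose protein was used to remove cells from both sorts, read 13.36, 13.52 and 13.29 on activated arrays and 7.99, 9.31 and 10.48 on quiescent arrays. The part of neuroblast RNA in the Tubb3 values was not tested.

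Counted by probe set, 13 of the 17 were bright enough to be tested, and 9 were called, 3 higher and 6 lower, where 31.9% of all tested probe sets were called, 15.6% higher and 16.3% lower, and 48.1% did not overlap between groups (23.6% higher, 24.5% lower). The called probe sets of a gene always moved the same way. The 4 that were not called belonged to Tuba1a, Tuba4a, Tubb3 and Tubb4b.

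**Figure D3:**
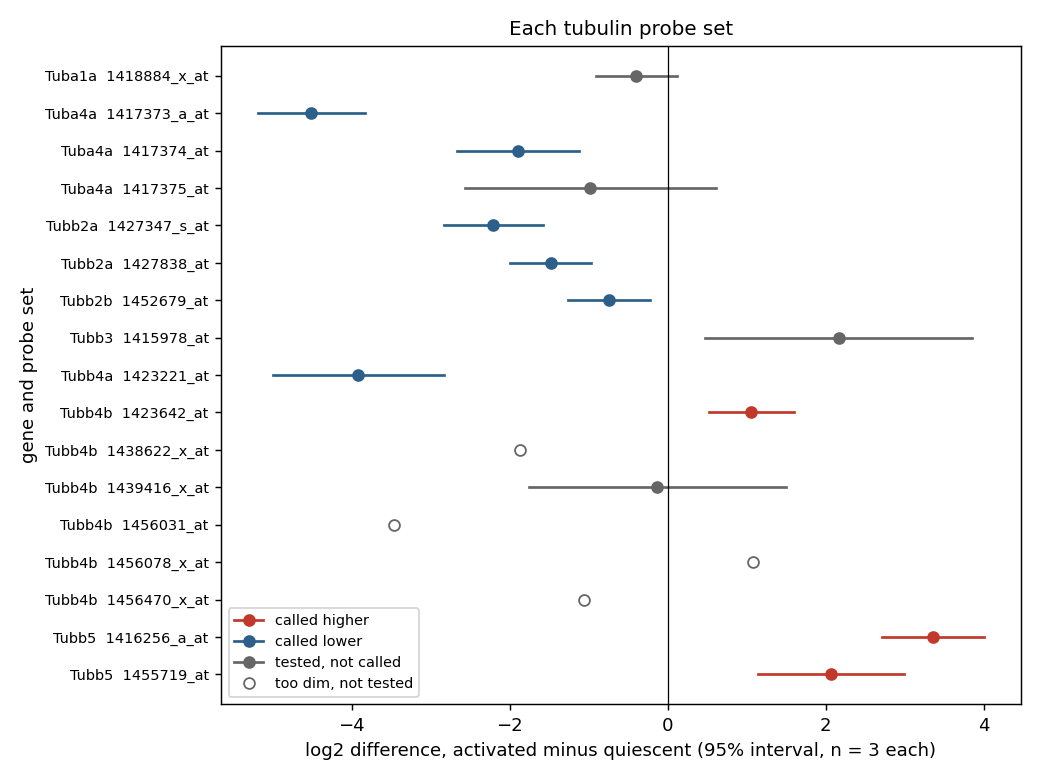
Log2 difference, activated minus quiescent (x axis), of each of the 17 tubulin probe sets (y axis), with 95% intervals from limma for the 13 tested, and open points for the 4 too dim to test. Both Tubb5 probe sets were called higher, and both Tubb2a and 2 of 3 Tuba4a probe sets were called lower.

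The isotypes were also set against each other. Each gene's log2 signal was set against the mean of the 8 isotypes on the same array, which no scaling of whole arrays can alter. As each gene is part of that mean, a fall of some isotypes raises the others on this measure. The 8 measures are therefore not independent. Tubb5 stood 1.81 ± 0.26 above that mean on activated arrays and at -2.20 ± 0.52 on quiescent arrays (SD, n = 3), a difference of 4.01. The difference was 2.81 for Tubb3, whose own signals overlapped between groups, and 1.71 for Tubb4b. It was -3.86 for Tuba4a, -3.27 for Tubb4a and -1.56 for Tubb2a. For these 6 of 8 genes the groups did not overlap, as for 53.1% of all tested genes set against the same mean, with a two-sided exact permutation p of 0.1 each (0.133 after Benjamini-Hochberg adjustment over 8 genes), the smallest that 3 arrays against 3 can give. Tuba1a (0.25, exact p = 0.7) and Tubb2b (-0.09, exact p = 0.8) overlapped. The log2 ratio of Tubb4a to Tubb5 was -5.54 ± 0.85 on activated and 1.74 ± 0.78 on quiescent arrays, and that of Tubb2b to Tubb5 was -0.13 ± 0.15 and 3.97 ± 0.90 in the same order. As probe sets differ in brightness, only the change of these ratios between groups can be read, not their level. Of the 28 such ratios among the 8 genes, 24 did not overlap between groups (exact permutation p = 0.1 each, 0.117 after adjustment over the 28), and of the ratios of all pairs of tested genes 51.1% did not. The 28 ratios share 8 genes and are not independent.

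**Figure D4:**
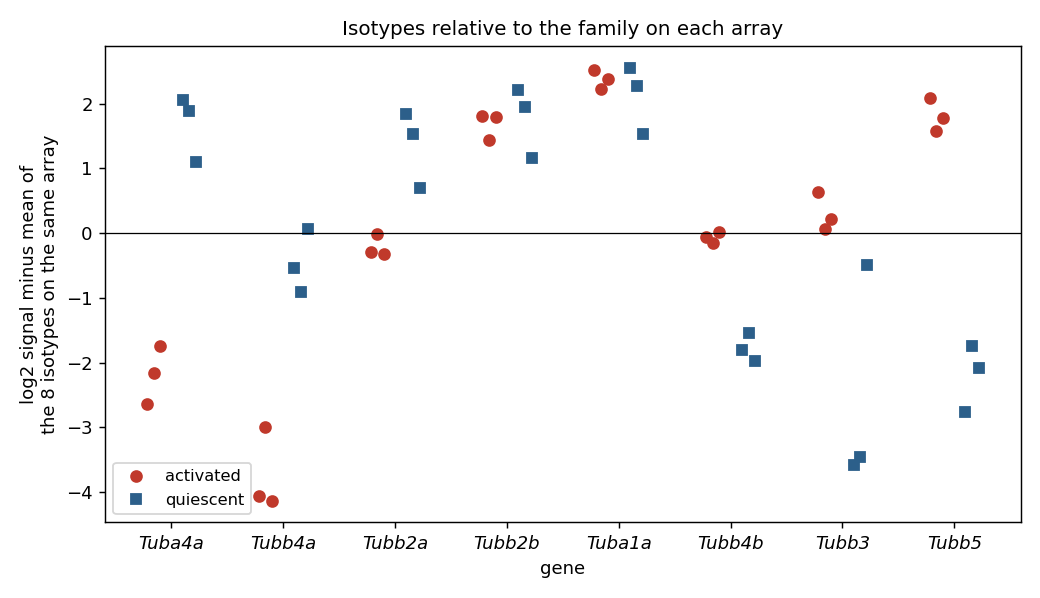
Log2 signal of each isotype minus the mean of the 8 isotypes on the same array (y axis), by gene (x axis), with activated arrays left of quiescent arrays. Tubb5, Tubb3 and Tubb4b lay higher in the family on all activated arrays, Tuba4a, Tubb4a and Tubb2a lower, and Tubb2b and Tuba1a overlapped.

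The promoters of the genes that rose and of the 3 genes with the largest decreases are shown here, chosen after their CCAAT boxes, a motif common in cell cycle promoters, had been counted. RefSeq sequences of build GRCm38.p6 were matched for 9 of the 10 listed genes, all but Tubb2b. Each line gives the 250 bases before the annotated start site, 5′ to 3′ on the strand of the gene, with CCAAT boxes (CCAAT, or ATTGG on the other strand) and TATA boxes (TATAAA) in capitals. They lie at chr17:35838302-35838551 (minus strand), chr2:25224703-25224952 (minus), chr17:57087601-57087850 (minus), chr1:75219295-75219544 (minus) and chr13:34078009-34078258 (minus).
Tubb5: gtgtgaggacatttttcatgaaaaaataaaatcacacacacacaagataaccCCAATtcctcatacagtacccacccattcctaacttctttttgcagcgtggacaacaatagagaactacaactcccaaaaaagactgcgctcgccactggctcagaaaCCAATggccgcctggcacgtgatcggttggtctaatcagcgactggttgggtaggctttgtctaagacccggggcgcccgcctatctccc
Tubb4b: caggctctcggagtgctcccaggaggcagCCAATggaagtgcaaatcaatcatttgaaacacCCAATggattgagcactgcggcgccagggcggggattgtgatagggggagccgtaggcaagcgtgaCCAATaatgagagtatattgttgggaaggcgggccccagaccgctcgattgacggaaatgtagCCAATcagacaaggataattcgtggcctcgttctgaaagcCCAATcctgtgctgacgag
Tubb4a: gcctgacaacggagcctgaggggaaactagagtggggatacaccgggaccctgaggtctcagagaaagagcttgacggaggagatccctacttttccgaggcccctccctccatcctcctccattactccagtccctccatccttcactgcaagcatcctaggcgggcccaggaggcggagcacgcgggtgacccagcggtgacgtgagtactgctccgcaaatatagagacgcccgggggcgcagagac
Tuba4a: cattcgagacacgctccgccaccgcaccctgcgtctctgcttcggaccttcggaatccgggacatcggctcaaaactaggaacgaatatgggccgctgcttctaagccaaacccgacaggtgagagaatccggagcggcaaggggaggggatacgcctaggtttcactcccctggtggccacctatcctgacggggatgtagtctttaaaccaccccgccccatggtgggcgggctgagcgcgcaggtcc
Tubb2a: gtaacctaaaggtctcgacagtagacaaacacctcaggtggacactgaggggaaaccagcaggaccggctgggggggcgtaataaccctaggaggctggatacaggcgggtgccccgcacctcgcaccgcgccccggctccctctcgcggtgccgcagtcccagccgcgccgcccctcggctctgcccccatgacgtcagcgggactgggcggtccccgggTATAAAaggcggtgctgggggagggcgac
The Tubb5 window held 2 CCAAT boxes and the Tubb4b window 5, all on the coding strand, while those of Tubb4a, Tuba4a and Tubb2a held 0. A CCAAT box was present in 33.9% of the 32841 RefSeq promoter windows of this length. The windows of Tuba1a and Tubb3, which were not called, held 1 each, that of Tuba1c held 1 and that of Tuba1b 0. A TATA box was found only in the Tubb2a window, at position -29 from the start site, and in 12.4% of all windows. The GC box GGGCGG occurred 2 times each in the Tuba4a and Tubb2a windows, 1 time for Tubb4b and 0 times for Tubb5 and Tubb4a (32.7% of all windows held it). On either strand, the cell cycle homology region TTTGAA was found only for Tubb4b, where it overlapped an E-box, CANNTG, which all of these windows but that of Tubb4a held (16% and 66.2% of all windows). A match of letters is a description and not a binding site, and these motifs were chosen after the values had been seen.

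Over the 6 arrays, the 3 genes most like Tubb5 by Pearson's r of log2 signal were Tmsb10, which encodes an actin-binding peptide (r = 0.9997), Commd1 (r = 0.9987) and the G1 kinase Cdk4 (r = 0.9987). Cdk4 read 13.22 to 13.26 on activated and 9.42 to 10.49 on quiescent arrays. For Tubb4a they were the thioesterase gene Acot11 (r = 0.998), the myelin protein gene Mal (r = 0.997) and Abhd14b (r = 0.996). For Tubb3 they were Pdcd6ip, an adaptor of membrane remodelling (r = 0.997), Fndc3a (r = 0.996) and Tfg, a protein of the secretory pathway (r = 0.996), all of which were also high on quiescent array 3. These correlations come from the same 6 RNA samples and were the highest among all other tested genes, so they describe these arrays only.

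Among the other tubulin genes, those of the gamma, delta and epsilon families and the remaining isotypes, 4 of the 8 with a probe set were bright enough to be tested. Tubg1, the gamma tubulin that nucleates microtubules at the centrosome, read 9.91, 10.67 and 10.19 on activated arrays and 6.50, 7.13 and 8.34 on quiescent arrays, and rose by 2.94 ± 0.51 (adjusted p = 0.00151). The beta isotype Tubb6 rose by 1.39 ± 0.47 (adjusted p = 0.0429), with overlapping arrays, and its call was lost under 7 of 19 alternatives (adjusted p = 0.0533 to 0.146), among them leaving out activated array 1 or 2 or quiescent array 1 or 2. The centriolar tubulins Tube1 (1.09 ± 0.59) and Tubd1 (0.28 ± 0.78) did not pass (adjusted p = 0.173 and 0.802).

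All 16 genes listed for the folding or control of tubulin were tested. Of these 7 rose and 1 fell, where 17.3% of all tested genes rose and 17.6% fell. Their median difference was 1.00, against 0.01 over all genes. The prefoldin subunits Pfdn4, Pfdn5 and Pfdn1, which hand newly made tubulin to the CCT chaperonin, rose by 2.02 ± 0.35 (adjusted p = 0.00163), 1.94 ± 0.40 (adjusted p = 0.00422) and 1.69 ± 0.40 (adjusted p = 0.00809). Pfdn5 turned to -0.19 when its probe sets were averaged (adjusted p = 0.74). Tbcel, a relative of folding cofactor E that can destabilise tubulin, fell by 1.63 ± 0.34 (adjusted p = 0.00454), but was not called under hybridisation control scaling (adjusted p = 0.115). Without activated array 1, 3 genes of this list were higher.

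Of the 21 tested genes listed for tubulin modification 3 rose and 3 fell (median 0.52), near the 17.3% and 17.6% of all tested genes. Ttll7, a glutamate ligase with a preference for beta tubulin, read 4.79, 6.58 and 5.91 on activated arrays and 10.50, 9.04 and 10.88 on quiescent arrays, and fell by 4.38 ± 0.63 (adjusted p = 0.000554). Ttll10, a glycine ligase, fell by 2.03 ± 0.64 (adjusted p = 0.0308), a call lost under 9 of 15 alternatives, among them leaving out any 1 array other than quiescent array 1. Ttll1, a glutamate ligase, was at least 7.99-fold higher (adjusted p = 0.0053), as 2 of 3 quiescent arrays were at or below background, but its call was lost without probe sets that may match several transcripts (1.04, adjusted p = 0.175). Ttll4 rose by 1.36 ± 0.36 (adjusted p = 0.0134, and 0.0637 without activated array 2) and Ttll12 by 1.38 ± 0.41 (adjusted p = 0.0249, lost under 5 of 19 alternatives, among them leaving out any activated array or quiescent array 1). Here and in the lists that follow, counts shifted upward after scaling to the hybridisation controls, which gave 7 higher and 1 lower modification genes. The higher count was 1 without activated array 2 and 7 without quiescent array 3, and the lower count was 1 without activated array 2 or 3.

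Genes that nucleate microtubules rose in 8 of 20 cases and fell in 0 (median 1.23), where 17.3% of all tested genes rose and 17.6% fell. After that scaling 15 rose, among 3059 higher and 943 lower of the 11575 tested genes. Without quiescent array 3, 1 gene of this list was lower. The spindle assembly factor Tpx2 rose by 4.47 ± 0.55 (adjusted p = 0.000236), the augmin subunit Haus1 by 2.94 ± 0.57 (adjusted p = 0.00303) and the gamma tubulin complex subunit Tubgcp3 by 2.68 ± 0.61 (adjusted p = 0.00707). Among 26 tested plus end, severing and destabilising genes, 6 rose and 4 fell (median 0.37), near the 34.9% called in either direction among all tested genes, or 10 and 1 after scaling to the hybridisation controls and 10 and 3 without quiescent array 3. The depolymerising kinesins Kif2c and Kif18a were at least 25.4-fold and 10.9-fold higher (adjusted p = 0.000139 and 0.000228), and Fignl1, a relative of severing enzymes that acts in DNA repair, at least 14.9-fold higher (adjusted p = 0.000243), a call lost when its probe sets were averaged (1.17, adjusted p = 0.16). Stmn4, a neural stathmin that binds tubulin dimers, read 8.21, 9.60 and 7.94 on activated arrays and 13.09, 10.67 and 12.51 on quiescent arrays and fell by 3.51 ± 0.61 (adjusted p = 0.00163). The plus end protein Mapre3 fell by 2.40 ± 0.63 (adjusted p = 0.0136, and 0.063 under that scaling).

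Of 22 tested structural microtubule-associated proteins, 4 rose and 4 fell (median 0.10), near the shares of all tested genes (17.3% and 17.6%), or 5 and 1 after scaling to the hybridisation controls. The higher count was 2 without activated array 1 or 3, and the lower count was 2 without activated array 2 or 3. Dcx rose by 3.10 ± 0.51 (adjusted p = 0.0012), its relative Dclk2 by 1.68 ± 0.36 (adjusted p = 0.00509) and Map1b, a protein of growing axons, by 1.31 ± 0.36 (adjusted p = 0.0175, 0.0839 without activated array 1 and 0.058 without activated array 3). Map7, which recruits kinesin-1, read 4.67, 6.04 and 5.04 on activated arrays and 8.46, 7.90 and 9.89 on quiescent arrays and fell by 3.50 ± 0.67 (adjusted p = 0.00277). Map7d2 fell by 1.66 ± 0.54 (adjusted p = 0.0365), a call lost under 11 of 18 alternatives, among them leaving out any 1 array other than quiescent array 1. Of 7 tested endothelial markers 5 fell and 0 rose in activated cells. The summed linear signal of the 12 matched was 2564 to 3786 on activated and 16910 to 18199 on quiescent arrays. On every array this sum was led by Slc2a1 (10.99 to 11.68 on activated and 13.55 to 13.94 on quiescent arrays). Beside the endothelial markers, oligodendrocyte markers were lower and neuroblast markers higher in activated cells, as given above. The part of these cell types in the isotype values and list counts was not tested.

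**Figure D5:**
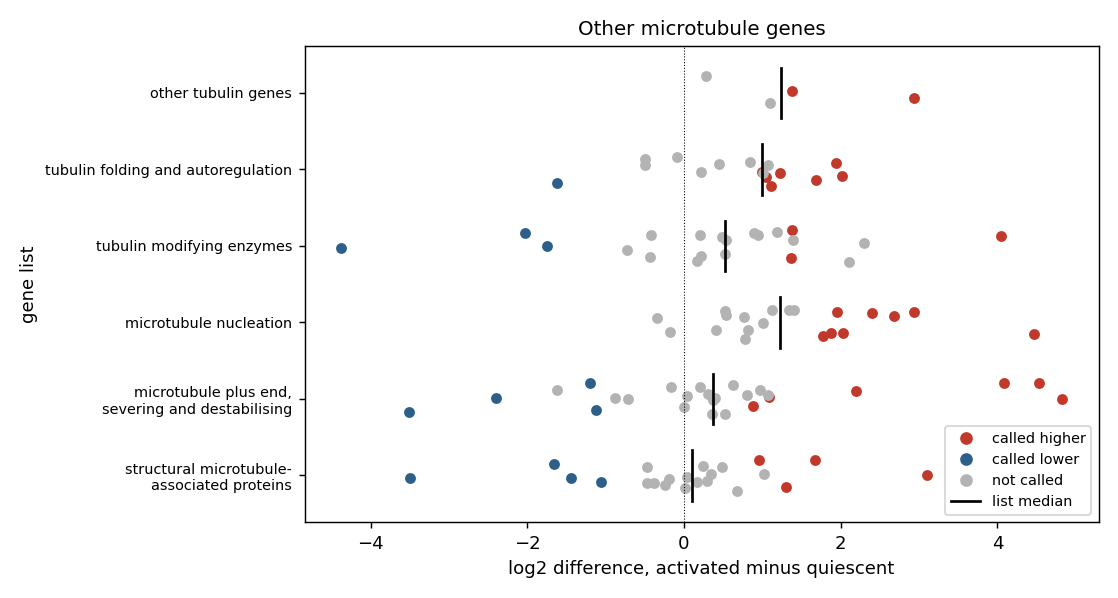
Log2 difference, activated minus quiescent (x axis), of each tested gene in 6 lists of microtubule genes (y axis), 1 point per gene, with the list median as a black line. Of the nucleation genes 8 were called higher and 0 lower, of the modification genes 3 and 3 and of the structural proteins 4 and 4. Among all tested genes 17.3% were called higher and 17.6% lower.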

How the data were processed

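RNA of 3 activated and 3 quiescent samples was measured on 1 array each. RNA was isolated by miRNeasy, amplified with a NuGEN Pico kit and biotin-labelled, per the labels' protocols. The authors deposited MAS5 signals in log2 units, per the submitters' processing notes. The sources used here give neither the MAS5 version nor detection calls nor a genome build. Every array has a linear 2% trimmed mean of 500.0, which removes differences in total RNA per cell. Tests left out 64 control probe sets. A RefSeq table of GRCm38.p6 gave current symbols by Entrez identifier. Platform annotation gave 34945 probe sets 1 gene, 932 several and 9160 none. Per gene the brightest single-gene probe set was kept, and genes under the 40th percentile of all probe sets (6.02) were left out. The test was limma's lmFit and eBayes with a trend, version 3.58.1 (R 4.3.3), without a pseudocount, tested on simulated data first. A fold is given as a lower bound where any array of the dimmer group did not exceed background, such arrays being set to background. Named genes were the members, tested other tubulins, up to 3 called genes of the commoner direction and 2 of the other in each microtubule list (with a tie, higher first), and 3 genes nearest to Tubb3, Tubb5 and Tubb4a. Marker genes were chosen for their roles. The members and lists were chosen with earlier results of these data known. Alternatives were other scalings, a pseudocount of 16, a background floor, filters, probe set rules, variance models, the replicate block and each array left out. Figures were drawn with matplotlib 3.10.9.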

Additional observations from a re-analysis of the deposited data

How the results depend on the processing

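Tuba4a, Tubb2a, Tubb4a and Tubb5 kept direction and call under all 19 alternatives, with differences of -4.69 to -2.46, -2.41 to -1.48, -4.39 to -3.27 and 2.07 to 4.0, and Tubb4b under the 18 that gave it a value (0.97 to 1.70). Its probe set mean fell under the filter, which left 1 higher isotype. Scaling to the hybridisation controls gave 3 lower tubulin probe sets in place of 6, 3059 higher and 943 lower genes of all tested (as deposited 2004 and 2040), and median scaling 3527 and 1191. Choosing the brightest probe set by the median took the further Tubb5 probe set and gave a change within the family of 2.88. Without activated array 2, 1315 genes were higher. With 1 array left out, 2 to 3 isotypes were higher and 3 to 4 lower, 2855 to 4616 genes were called in all, 1315 to 2440 higher and 1540 to 2176 lower. The averaged Pfdn5 probe sets reversed (-0.19). Replicate numbers were not used to pair the arrays in the main test. The deviations of same-numbered arrays correlated at 0.03, -0.09 and 0.01, and those of unlike-numbered arrays at -0.10 to 0.08. With 3 arrays per group these values cannot show whether same-numbered samples were collected together. With the replicate block 3 isotypes were higher and 3 lower, as Tubb3 was called (adjusted p = 0.0278) and Tubb2b was not (adjusted p = 0.0708). The ratios within the family were not recomputed for the 2 probe set rules that leave a member out, nor under the other variance models, the block and no filter, which leave them as they are. Dim probe sets, 4 of 17, are limited by background.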

Other observations

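Probe sets shared by a tubulin isotype and another gene were outside the comparisons, and their signal cannot be assigned to either gene. The probe set annotated to Tuba1b and Gm5620 read 14.46, 14.47 and 14.37 on activated arrays and 14.06, 14.10 and 13.96 on quiescent arrays, without overlap. A probe set annotated to Tuba1c and Gm6682 read 12.18, 10.14 and 11.15 on activated arrays and 5.02, 7.95 and 7.98 on quiescent arrays. A further probe set with the same annotation was dim, at 7.33, 4.46 and 6.38 on activated arrays and 5.45, 6.21 and 6.12 on quiescent arrays. The probe set annotated to Tuba1a and Gm6682 read 5.04 to 5.52 on activated and 5.58 to 6.26 on quiescent arrays. The probe set annotated to Tubb2b and Tubb2a-ps2 read 12.18, 12.08 and 12.02 on activated arrays and 9.54, 11.20 and 11.08 on quiescent arrays, higher in activated cells, whereas the single-gene probe set of Tubb2b was lower there. A probe set annotated to Tubb2a-ps2 alone read 11.04, 10.30 and 10.33 on activated arrays and 8.33, 9.57 and 10.56 on quiescent arrays, which overlapped.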
